A study of Rattus norvegicus with 4 samples.

Results

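The transcription factor p53 responds to DNA damage, faulty ribosome production and other stress by switching on genes that halt the cell cycle, repair DNA or start apoptosis, and its ubiquitin ligase Mdm2 closes a feedback loop by degrading it. The mitochondrial route of apoptosis is set by the balance between BCL2 relatives that permeabilise the outer mitochondrial membrane and those that hold them back. In postmitotic neurons the same genes are known for their part in developmental and injury-induced cell death. The 9 genes described here are Cdkn1a, Ccng1 and Gadd45a, which act on cell cycle arrest, Mdm2 and the RNA-binding protein gene Zmat3, the pro-apoptotic Bax and Bbc3, the anti-apoptotic Bcl2, and the stress-response gene Sesn2. They were found as the gene probes that carry these names on the array, which gave 9 of 34235 names (some of these are probe names) and 14 of the 41012 gene probes, with 1 or 2 probes per gene.

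The arrays measured total RNA of primary cortical neurons from Sprague Dawley rat embryos at E18.5, and the labels give both sexes for each culture. Neurons were infected at day 2 in vitro with lentivirus carrying either a control hairpin (shCTL) or a hairpin that targets Cmtr1 (shCM1), the gene of the cap methyltransferase that methylates the first transcribed nucleotide of an mRNA, and were harvested at day 7. Each group had 2 arrays from 2 independent experiments, and all 4 cultures carried a lentivirus. The promoter of the shRNA, its sequence and the number of embryos are not given in the sources used here. The 2 groups differ in the hairpin, so lower CMTR1 and other effects of the shRNA cannot be told apart. Replicate 1 of both groups lay on slide 1 and replicate 2 of both on slide 2.

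A level is given throughout as log2 signal above or below the 75th percentile of its own array, and that percentile lay between 596 and 755 signal units over the 4 arrays. Differences are levels in shCM1 minus levels in shCTL. Cmtr1 was at -1.43 and -1.86 in the shCTL arrays and at -3.46 and -3.53 in the shCM1 arrays, 27.7% of control. Between 34439 and 37068 probes per array were well above background, and all 14 probes of the 9 genes were so on all 4 arrays. The fit without a block called 0 of 36696 probes (limma, Benjamini-Hochberg adjusted p under 0.05; 0%), while 1109 (3.02%) had an unadjusted p under 0.05. With the slide as a block limma called 2161 probes (5.89%), of which 1175 were higher (3.2%) and 986 lower (2.69%) in shCM1. That split turned to 545 higher (1.49%) and 807 lower (2.2%) after quantile normalization. Of markers of other cells, 13 of 14 microglial genes were higher in shCM1 within both slides and 7 rose with the block, 13 of the 14 were well above background on all arrays, and their summed level was 1.57 and 1.43 in shCTL and 2.19 and 1.84 in shCM1. Of the fibroblast markers 3 of 7 rose and 0 fell (median 0.54), with a summed level of 2.32 and 2.36 in shCTL and 2.29 and 2.40 in shCM1. Of the oligodendrocyte lineage markers 2 of 9 rose and 1 fell, with 5.66 and 5.87 in shCTL and 5.50 and 5.84 in shCM1. Astrocyte and endothelial markers had 0 called genes with the block (limma; 1 of 9 and 1 of 7 had an unadjusted p under 0.05). The part of these cells in the differences below was not tested. All 10 neuronal markers were well above background on all arrays and 1 of them, Tubb3, fell with the block (-0.37). Within both slides 0 of the 10 were higher in shCM1 (44.2% of all probes) and 6 were lower (22.6%). The median difference of these markers was -0.08, against 0.08 over all probes. They had a summed level of 8.66 and 8.32 in shCTL and 8.60 and 8.21 in shCM1. In such whole cultures fewer cells of a type and less RNA per cell cannot be told apart.

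Of the 14 probes, 5 passed the test with the slide as a block (35.7%, against 5.89% of all probes), namely both Cdkn1a probes, 1 of the 2 Ccng1 probes, the Sesn2 probe and the Zmat3 probe. The first 4 of these rose (3.2% of all probes) and Zmat3 fell (2.69% of all probes). After quantile normalization 4 were called (3.68% of all probes), with cyclic loess 3 (2.65%), with normexp 4 (3.87%) and with the authors' processed values 3 (3.01%). All of these rose except Zmat3 under normexp. In the same order higher calls made up 1.49%, 1.01%, 1.73% and 1.16% of all probes, and lower calls 2.2%, 1.64%, 2.14% and 1.84%. None passed without the block, where 5 had an unadjusted p under 0.05 (3.02% of all probes) and every adjusted p from limma was 1.00. Within both slides 10 of the 14 probes were higher in shCM1 (44.2% of all probes), 1 was lower (22.6%) and 3 differed in direction between the slides (33.2%). The median difference of the 14 probes was 0.33 on the log2 scale, against 0.08 over all probes. The genes were chosen with earlier results of these data known. Neither their share of calls nor this median can therefore serve as a test for an excess.

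**Figure D1:**
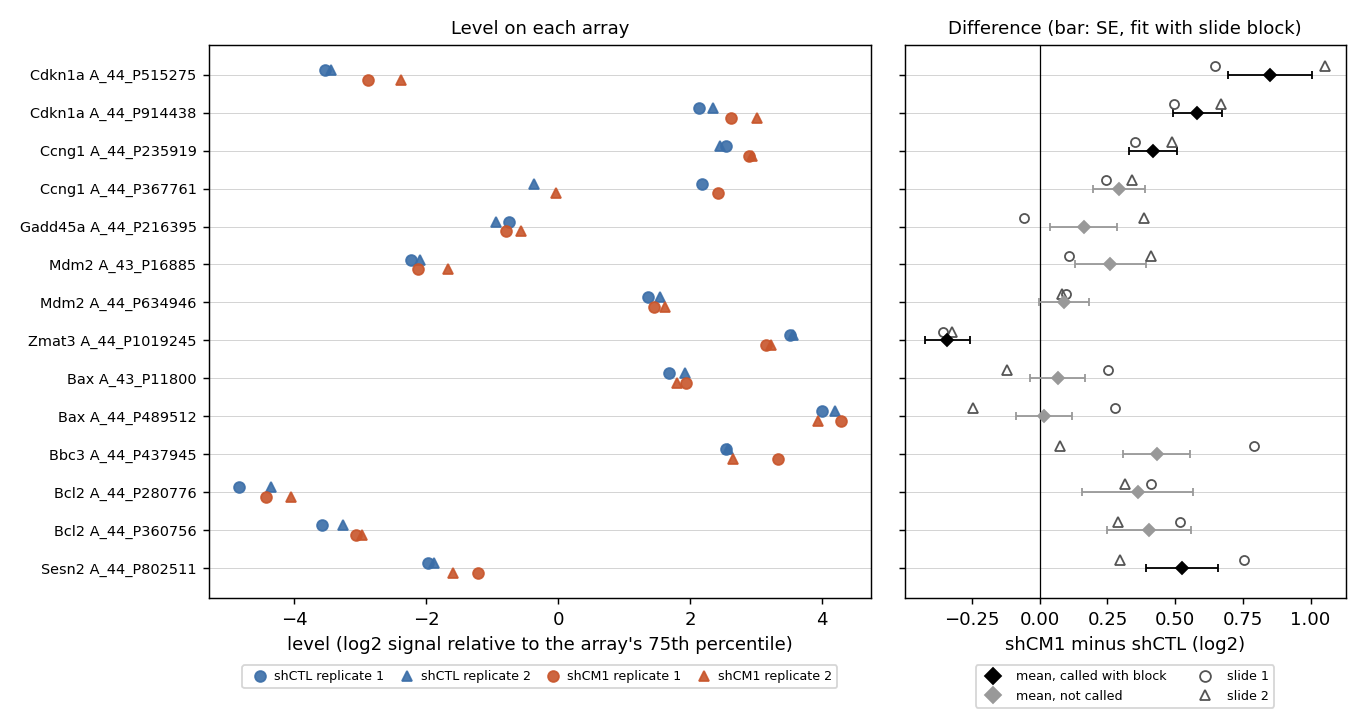
Levels and differences of the 14 probes. The left panel plots the log2 level on each array (circles, replicate 1; triangles, replicate 2) and the right panel the difference of shCM1 minus shCTL within each slide (open symbols) and on average (diamonds, with the standard error of the fit with the slide as a block; black where that fit called the probe). The 2 shCM1 arrays of both Cdkn1a probes lie above both shCTL arrays, and those of Zmat3 lie below.

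The start-site sequences are shown for the 3 genes whose window held a match to the consensus of a p53 half-site, the short element of which a p53 tetramer binds a pair. RefSeq windows on build GRCr8, from 250 bases before to 50 bases after the start site, matched 6 of the 9 genes by symbol: Cdkn1a, Ccng1, Gadd45a, Mdm2, Bcl2 and Sesn2. The consensus, which reads the same on both strands, had 1 match each in Cdkn1a at position -201, Ccng1 at -232 and Gadd45a at -48, given as the first base of the match relative to the start site. Among all 33469 windows of 300 bases, 7.98% held a match. The matches are in capitals, 5′ to 3′ on the gene's strand, for chr20:7150682-7150981 (Cdkn1a, plus strand), chr10:25684827-25685126 (Ccng1, minus strand) and chr4:97486750-97487049 (Gadd45a, minus strand).
Cdkn1a: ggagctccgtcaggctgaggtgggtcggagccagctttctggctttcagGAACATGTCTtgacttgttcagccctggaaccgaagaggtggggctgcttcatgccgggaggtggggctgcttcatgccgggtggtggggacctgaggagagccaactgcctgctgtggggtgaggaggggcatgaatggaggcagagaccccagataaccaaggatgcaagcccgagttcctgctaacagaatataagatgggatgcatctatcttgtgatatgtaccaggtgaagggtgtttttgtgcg
Ccng1: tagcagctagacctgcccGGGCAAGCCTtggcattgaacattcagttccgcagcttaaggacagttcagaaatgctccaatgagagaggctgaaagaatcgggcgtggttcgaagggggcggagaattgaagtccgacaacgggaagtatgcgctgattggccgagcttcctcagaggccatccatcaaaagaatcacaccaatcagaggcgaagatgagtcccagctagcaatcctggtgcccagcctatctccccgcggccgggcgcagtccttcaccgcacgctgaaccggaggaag
Gadd45a: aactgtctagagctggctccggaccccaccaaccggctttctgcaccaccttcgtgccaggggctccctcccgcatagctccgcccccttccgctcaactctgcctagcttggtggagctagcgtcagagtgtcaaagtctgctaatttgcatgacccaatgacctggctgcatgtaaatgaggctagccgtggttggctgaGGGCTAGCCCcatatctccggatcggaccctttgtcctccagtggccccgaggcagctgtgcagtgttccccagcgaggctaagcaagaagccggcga
The GC box GGGCGG, searched on both strands, was in the windows of Ccng1, Gadd45a, Mdm2 and Sesn2, and 33.1% of all windows held it. The ATF4 composite element TGATGCAAT, also searched on both strands, was in none of the 6 windows and in 0.188% of all. A match is a string of letters, and no binding was measured here.

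Cdkn1a, which encodes the cyclin-dependent kinase inhibitor p21 and is a classic p53 target, had the largest difference of the 9 genes. Its probe A_44_P914438, printed in 10 spots per array and lying at chr20:7386596-7386655 (rn4 per the file headers), was at 2.13 and 2.35 in the shCTL arrays and at 2.62 and 3.02 in the shCM1 arrays. Both shCM1 arrays were thus above both shCTL arrays, as for 21.8% of all probes. The spots of this probe on 1 array scattered with an SD of 0.040 to 0.062 on the log2 scale over 9 spots used. Spots are repeats within an array, and the 2 arrays of a group differed by 0.22 in shCTL and 0.39 in shCM1. The difference was 0.58 (SE 0.19 without the block, n = 2 arrays per group), or 1.5-fold, with 0.50 on slide 1 and 0.67 on slide 2. With the block the SE of this probe was 0.09. Here and below, an SE is from the fit without the block unless stated otherwise. The adjusted p beside it is from the fit with the block, so the 2 belong to different fits. With the slide as a block the limma adjusted p was 0.00114, and it stayed under 0.05 under all 4 other scalings. Without shCM1 replicate 2 the difference was 0.38.

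The other Cdkn1a probe, A_44_P515275 at chr20:7385506-7385565, was at -3.53 and -3.44 in shCTL and at -2.88 and -2.39 in shCM1. The signal of this probe was dim, between 56.4 and 142 units, and the groups did not overlap here either. Its difference was 0.85 (SE 0.24), with 0.65 and 1.05 within the slides and a limma adjusted p of 0.00421 with the block. With normexp background correction the difference was 0.56, and it was 0.70 with quantile normalization, cyclic loess and the authors' processed values. The call was kept under all 4 other scalings. Both probes therefore had the larger difference on slide 2. When probes of any brightness were kept, the block fit called A_44_P914438 (limma adjusted p = 0.0344) and no longer A_44_P515275 (0.0817).

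Ccng1 encodes cyclin G1, a p53-induced cyclin that recruits a phosphatase to MDM2. Its probe A_44_P235919 at chr10:25776868-25776927 was at 2.54 and 2.45 in shCTL and at 2.89 and 2.94 in shCM1. The shCM1 arrays stood above the shCTL arrays, and the spread within each group was small beside the gap. The difference was 0.42 (SE 0.14, 1.34-fold), with 0.35 and 0.49 within the slides. With the block limma gave an adjusted p of 0.0107, and the call was kept under all 4 other scalings. It was lost when dim probes were kept (limma adjusted p = 0.0746).

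The second Ccng1 probe, A_44_P367761, is shown because its level was far apart between the slides in both groups. Its 60 bases span 275 bases of chr10:25778638-25778912 on the minus strand, a longer stretch than the probe, as when a probe crosses an exon junction.
A_44_P367761: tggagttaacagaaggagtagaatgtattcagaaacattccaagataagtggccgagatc
It was at 2.18 in shCTL and 2.43 in shCM1 on slide 1, and at -0.37 in shCTL and -0.03 in shCM1 on slide 2. Both groups were thus lower on slide 2, by 5.88-fold in shCTL and 5.50-fold in shCM1, and the groups overlapped. Only 31 of the 36696 probes were at least as far apart between the slides in the same direction in both groups, 0.0845%. Within the slides shCM1 was higher by 0.24 and 0.34, with an average of 0.29 (SE 1.09 without the block). With the block limma gave an adjusted p of 0.0869, which did not pass. The unpaired difference was -0.99 without shCTL replicate 2, -0.94 without shCM1 replicate 1, 1.57 without shCTL replicate 1 and 1.52 without shCM1 replicate 2. Probe A_44_P235919 of the same gene differed between the slides by -0.09 in shCTL and 0.05 in shCM1.

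Gadd45a, a growth arrest gene that p53 and other stress factors induce, did not pass. It was at -0.74 and -0.94 in shCTL and at -0.80 and -0.55 in shCM1. The groups overlapped, with differences of -0.06 on slide 1 and 0.38 on slide 2. The average was 0.16 (SE 0.18), with a limma adjusted p of 0.459 with the block. It was 0.04 without shCM1 replicate 2 and 0.28 without shCM1 replicate 1, the lowest and highest with an array left out.

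Mdm2, the ligase that ubiquitinates p53 and is itself a p53 target, did not pass by either probe. Probe A_44_P634946 was at 1.36 and 1.54 in shCTL and at 1.46 and 1.62 in shCM1, with overlapping groups and differences of 0.10 and 0.08 within the slides. Probe A_43_P16885, whose 60 bases span 335 bases of chr7:57005501-57005835, was at -2.23 and -2.08 in shCTL and at -2.12 and -1.67 in shCM1. It differed by 0.11 on slide 1 and 0.41 on slide 2. The averages were 0.09 (SE 0.16) and 0.26 (SE 0.22), and the limma adjusted p with the block was 0.600 and 0.251. Without shCTL replicate 1 the first probe had -0.00045. The second had 0.04 without shCM1 replicate 2 and 0.48 without shCM1 replicate 1, and 0.17 after quantile normalization, with cyclic loess and with the authors' processed values.

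Zmat3, a p53 target whose zinc finger protein binds RNA and affects splicing and mRNA stability, went the other way. It was at 3.51 and 3.55 in the shCTL arrays and at 3.15 and 3.23 in the shCM1 arrays. Both shCM1 arrays were below both shCTL arrays, as for 10% of all probes, and the slides gave nearly the same gap, -0.36 and -0.32. The difference was -0.34 (SE 0.13), which is 78.9% of control, with a limma adjusted p of 0.0248 with the block. The call was kept with normexp (-0.39, limma adjusted p = 0.0221). It was lost after quantile normalization (-0.28, 0.0881), with cyclic loess (-0.28, 0.108) and with the authors' processed values (-0.27, 0.110), and when dim probes were kept (limma adjusted p = 0.0967).

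**Figure D2:**
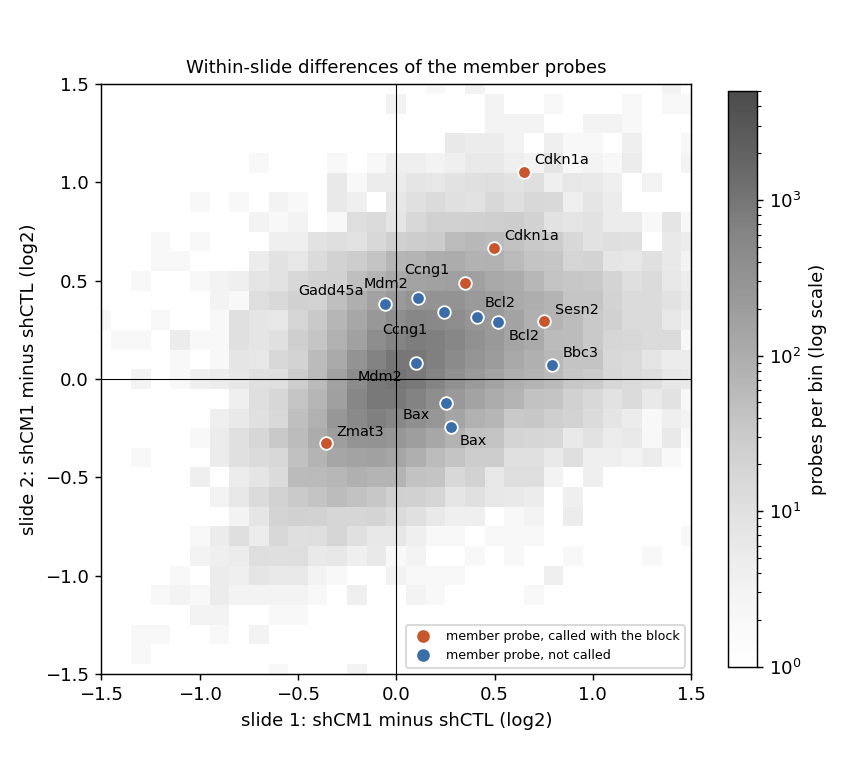
Difference of shCM1 minus shCTL on slide 1 (x axis) against slide 2 (y axis), both on the log2 scale. Grey squares count all 36696 probes in bins, those beyond 1.5 not drawn, and coloured points are the 14 probes of the 9 genes, orange where the fit with the slide as a block called them. Cdkn1a lies farthest up among the 14, Zmat3 alone lies in the lower left, and the 2 Bax probes lie to the right of and below 0.

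Bax, which oligomerises in the outer mitochondrial membrane, differed in direction between the slides by both probes. Probe A_43_P11800, with 10 spots per array, was at 1.68 and 1.92 in shCTL and at 1.93 and 1.80 in shCM1. Probe A_44_P489512 was at 4.0 and 4.19 in shCTL and at 4.28 and 3.94 in shCM1. Both were higher in shCM1 on slide 1, by 0.25 and 0.28, and lower on slide 2, by -0.12 and -0.25. The averages of 0.07 (SE 0.16) and 0.02 (SE 0.17) did not pass, with limma adjusted p of 0.743 and 0.945 with the block. With normexp the average of A_44_P489512 was -0.03, and it was -0.08 without shCTL replicate 1 and -0.15 without shCM1 replicate 1. That of A_43_P11800 was -0.06 without shCTL replicate 1.

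Bbc3 encodes PUMA, a BH3-only protein that frees BAX by binding its inhibitors and that p53 induces directly. It was at 2.54 and 2.57 in shCTL and at 3.33 and 2.65 in shCM1. The groups did not overlap, yet the second shCM1 array was close to the shCTL arrays, and the slides differed by 0.79 and 0.07. The difference was 0.43 (SE 0.25, 1.35-fold), with a limma adjusted p of 0.0521 with the block, just outside the threshold. After quantile normalization it was called, at 0.50 with a limma adjusted p of 0.0492. When each gene was represented by 1 probe it was called at 0.0321. It was not called with normexp (limma adjusted p = 0.0532), cyclic loess (0.103) or the authors' processed values (0.0807). Nor was it called when dim probes were kept (limma adjusted p = 0.211). Without shCM1 replicate 1 the difference was 0.09, and without shCM1 replicate 2 it was 0.77.

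Bcl2, the founding anti-apoptotic member of its family, was measured by 2 probes in the region chr13:12903960-12904817 on the minus strand. The probe with 10 spots per array, A_44_P280776, is shown as the one that rests on repeated spots of a dim signal, between 22.9 and 45.2 signal units.
A_44_P280776: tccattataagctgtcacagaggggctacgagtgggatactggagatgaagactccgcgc
It was at -4.83 and -4.35 in shCTL and at -4.42 and -4.04 in shCM1, so that the groups overlapped. The spots of 1 array scattered with an SD of 0.083 to 0.156 on the log2 scale, after 3 of 10 were left out as outliers in shCTL replicate 1. Within the slides shCM1 was higher by 0.41 and 0.31. Probe A_44_P360756, designed on a transcript named Bcl-2 beta, was at -3.58 and -3.27 in shCTL and at -3.06 and -2.98 in shCM1. It was higher by 0.52 and 0.29 within the slides, and its groups did not overlap. Neither passed, with differences of 0.36 (SE 0.30) and 0.40 (SE 0.21) and limma adjusted p of 0.313 and 0.133 with the block. With the other 4 scalings the difference of A_44_P280776 was 0.14 to 0.16 and that of A_44_P360756 was 0.21 to 0.25. With an array left out they ranged from 0.12 to 0.60 and from 0.25 to 0.56, lowest without shCTL replicate 1 and highest without shCTL replicate 2.

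Sesn2 encodes sestrin 2, which senses leucine and restrains mTORC1, and which both p53 and the integrated stress response factor ATF4 induce. Its single probe, shown because the call of the gene rests on it alone, has no genome position in the files.
A_44_P802511: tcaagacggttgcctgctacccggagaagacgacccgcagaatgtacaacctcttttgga
It was at -1.97 and -1.89 in shCTL and at -1.21 and -1.59 in shCM1. The groups did not overlap, and slide 1 gave the larger gap, 0.75 against 0.29. The difference was 0.52 (SE 0.20, 1.44-fold), with a limma adjusted p of 0.0298 with the block. None of the other scalings kept this call. It had a limma adjusted p = 0.0911 after quantile normalization, 0.125 after cyclic loess, 0.0517 with normexp and 0.118 in the authors' table, and 0.147 when dim probes were kept. The 4 other scalings gave differences of 0.42 to 0.45. Without shCM1 replicate 1 the difference was 0.34.

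**Figure D3:**
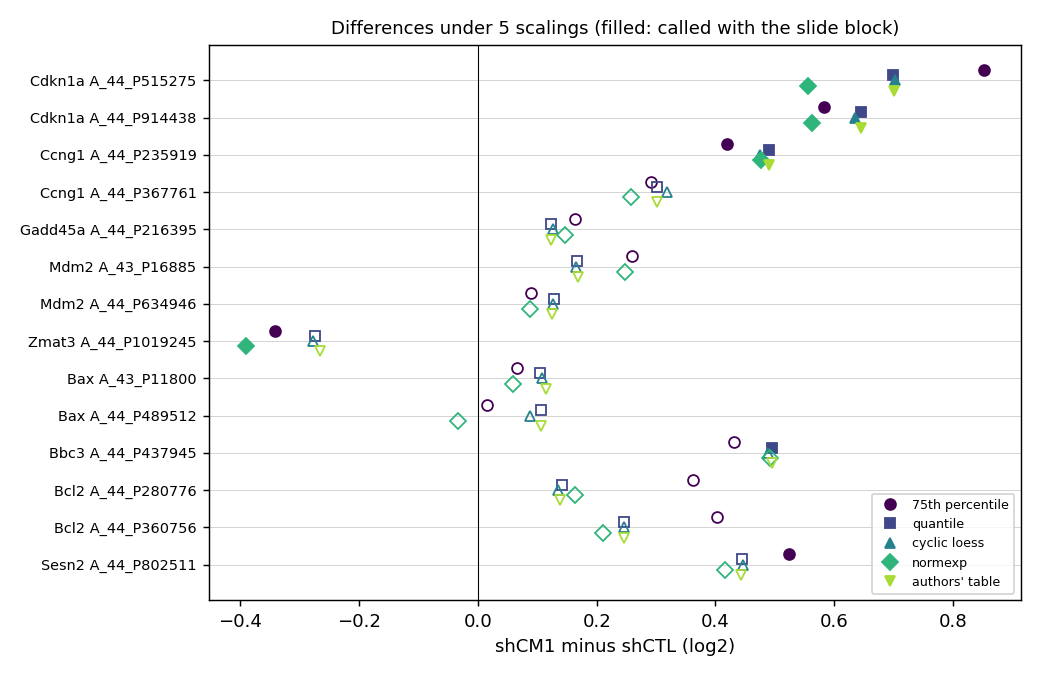
Difference of shCM1 minus shCTL (log2) of each of the 14 probes under 5 scalings, filled where the fit with the slide as a block called the probe. Both Cdkn1a probes and Ccng1 probe A_44_P235919 are filled under all 5, while Zmat3 is filled under 2 and Sesn2 under 1.

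The wider pathway was read from gene lists, which were also chosen with earlier results of these data known, each gene by its brightest probe. All calls in the lists are from the fit with the block and are to be read against the 3.2% of all probes that were higher and the 2.69% that were lower in it. Those shares count every probe, while a list gene counts by 1 probe. With 1 probe per gene name the block fit called 1124 higher and 927 lower of 30360. Keeping dim probes ended the calls of 9 of the 12 called list genes, with limma adjusted p of 0.0657 (Gadd45g) to 0.162 (Gdf15). Btg2 (0.0153), Ddit4 (0.0246) and Cdkn1b (0.0430) kept theirs. Of 31 other p53 targets 23 were measured, of which 3 rose (against 3.2% of all probes) and 0 fell (against 2.69%), with a median difference of 0.12 against 0.08 over all probes. Btg2, an antiproliferative gene induced by p53 and by neuronal activity, was at 1.27 and 1.26 in shCTL and at 2.02 and 2.31 in shCM1. That is a difference of 0.90 (SE 0.17, 1.86-fold), with a limma adjusted p of 6e-05 with the block, and it was called under all 5 scalings. Tp53inp1, a p53-induced nuclear protein, had 0.54 (SE 0.19), and its other probe had 0.57 and passed too. Its call was lost after cyclic loess (limma adjusted p = 0.0633) and in the authors' table (0.0619). Gdf15, a stress cytokine, had 0.47 (SE 0.41 without the block and 0.13 with it). The limma adjusted p of Gdf15 with the block was 0.0471, and the gene passed under none of the other scalings. Its difference was 0.81 without shCTL replicate 1, 0.13 without shCTL replicate 2, -0.03 without shCM1 replicate 1 and 0.97 without shCM1 replicate 2.

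Of the 14 measured genes of p53 and its regulators, 0 rose and 1 fell, and the median was 0.03 against 0.08 over all probes. A share of 1 in 14 is near the 5.89% of all probes called. Usp7, a deubiquitinase that stabilises MDM2 and p53, had -0.42 (SE 0.23) with a limma adjusted p of 0.0143. Its other probe had -0.26 and did not pass, and cyclic loess (limma adjusted p = 0.0695) and the authors' table (0.0625) both lost the call. Without shCTL replicate 2 Usp7 had -0.15, and without shCTL replicate 1 it had -0.69. The kinase gene Hipk2 had -0.21 (SE 0.20) and did not pass. It had 0.0040 without shCM1 replicate 1 and -0.42 without shCM1 replicate 2.

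Among the other members of the BCL2 family, 14 of 15 were measured and 0 passed with the block (limma; 1 had an unadjusted p under 0.05 without the block and 4 with it, and 5.89% of all probes were called), with a median of -0.01. The BH3-only gene Bik had -0.65 (SE 0.24) and a limma adjusted p of 0.0526. It passed after quantile normalization (-0.84, limma adjusted p = 0.0208), with cyclic loess (-0.86, 0.0364) and with the authors' processed values (-0.83, 0.0336), but had -0.27 with normexp. Bcl2l11, which encodes the BH3-only protein BIM, had 0.42 (SE 0.19). The anti-apoptotic genes Bcl2l1 and Mcl1 had -0.02 and 0.01.

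Of the caspases, apoptosome genes and inhibitors of apoptosis, 20 of 21 were measured, of which 2 rose (against 3.2% of all probes) and 1 fell (against 2.69%), with a median of 0.01 against 0.08 over all probes. Diablo, whose protein leaves mitochondria and blocks inhibitors of apoptosis, had 0.38 (SE 0.14). Casp2, an initiator caspase, had 0.38 (SE 0.28 without the block and 0.09 with it). Birc5, the inhibitor of apoptosis that also serves in mitosis, had -0.44 (SE 0.27). All 3 were called with the block under all 5 scalings, and all 3 were lost when dim probes were kept (limma adjusted p = 0.106, 0.0814 and 0.0746 for Diablo, Casp2 and Birc5). Casp2 had 0.08 without shCTL replicate 1, 0.67 without shCTL replicate 2, 0.65 without shCM1 replicate 1 and 0.11 without shCM1 replicate 2. Birc5 had -0.69, -0.19, -0.17 and -0.71 in that order.

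Among 10 relatives of the 9 genes, 3 rose (against 3.2% of all probes) and 0 fell (against 2.69%), with a median of 0.25 against 0.08 over all probes. Gadd45g, a paralogue of Gadd45a, had 0.85 (SE 0.33, 1.80-fold), with 0.50 and 1.19 within the slides. Cdkn1b, which encodes the inhibitor p27, had 0.55 (SE 0.23), and its other probe had 0.45 and passed too. Ccng2, a cyclin G relative that FOXO factors induce, had 0.44 (SE 0.18). Gadd45g and Cdkn1b were called under all 5 scalings, and Gadd45g was lost when dim probes were kept (limma adjusted p = 0.0657). By contrast Ccng2 was lost after quantile normalization (limma adjusted p = 0.0710), with cyclic loess (0.0898) and with the authors' processed values (0.0874). Gadd45g had 1.31 without shCM1 replicate 1 and 0.38 without shCM1 replicate 2, and Cdkn1b had 0.31 without shCM1 replicate 2. Of the 8 measured markers of dividing progenitors 2 fell (against 2.69% of all probes) and 2 rose (against 3.2%). Within both slides 4 of the 8 were higher in shCM1 and 4 lower. Their summed levels were 5.28 and 5.16 in shCTL and 5.18 and 5.52 in shCM1. The mitotic genes Cdk1 and Ccnb1 had -0.51 and -0.45, and the progenitor genes Sox2 and Hes5 0.44 and 0.85. Their part in the values of Cdkn1a, Cdkn1b and Birc5 was not tested.

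Of 12 genes of ATF4 and its targets 11 were measured, of which 2 rose (against 3.2% of all probes) and 0 fell (against 2.69%), with a median of 0.25 against 0.08 over all probes (0.40 on slide 1 and -0.08 on slide 2). Atf3, a stress-induced transcription factor, had 1.29 (SE 0.41, 2.45-fold), with 2.13 on slide 1 and 0.45 on slide 2. It was lost after cyclic loess (limma adjusted p = 0.0579) and had 0.75 without shCM1 replicate 1. Ddit4, an inhibitor of mTORC1 that p53, ATF4 and glucocorticoids induce, had 0.77 (SE 0.19, 1.70-fold), with 0.74 and 0.80 within the slides, and was called under all 5 scalings.

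**Figure D4:**
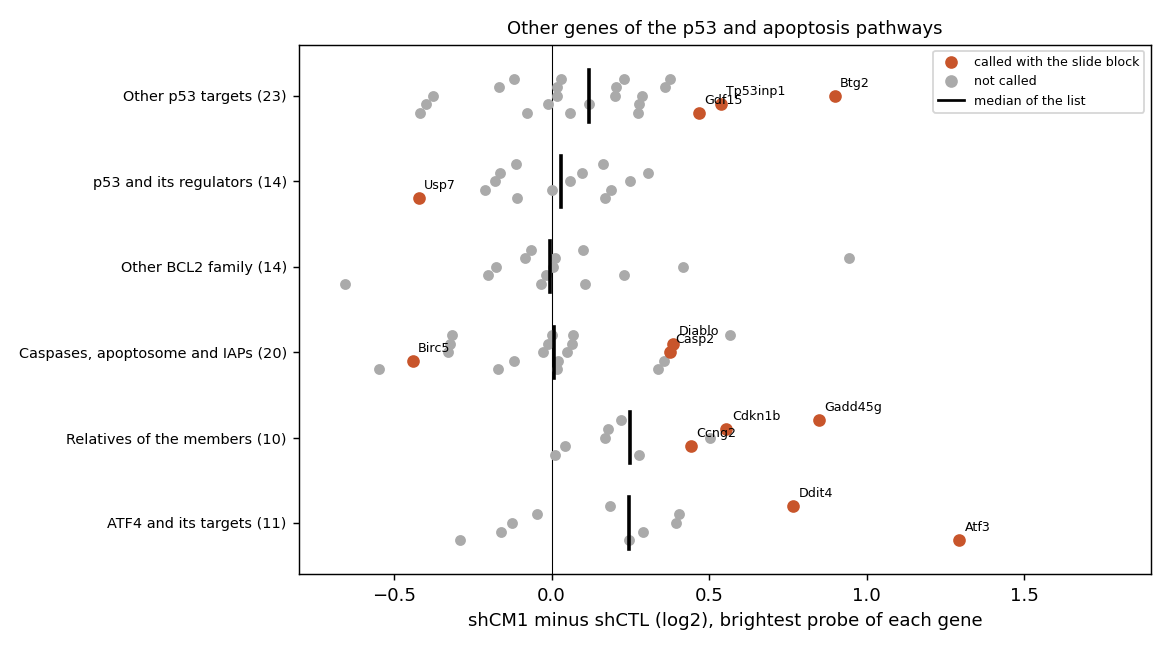
Difference of shCM1 minus shCTL (log2) of each measured gene of the 6 lists, by its brightest probe, with the number measured in brackets. Orange points were called in the fit with the slide as a block and black bars mark list medians. Btg2, Gadd45g, Ddit4 and Atf3 lie farthest to the right among the called genes, and the called genes on the left are Usp7 and Birc5.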

How the data were processed

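Total RNA of 2 shCTL and 2 shCM1 cultures was hybridised to single-colour Agilent rat arrays. The authors deposited scanner output, which the file headers trace to Feature Extraction 10.7.3.1, with processed signal intensity per spot, already background-corrected by that software, and a table of processed intensity values for the same arrays. That table followed the log2 scanner intensity of its own array with a correlation of at least 0.9998. Its normalization is not stated in the labels.

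Control spots and outlier spots were left out, spots of 1 probe were averaged, and each array's log2 intensity was set relative to its 75th percentile. A probe was kept (36696 were) if 2 or more of the 4 arrays had it well above background. Differences were tested with limma 3.58.1 (lmFit, eBayes with intensity trend, two-sided) in R 4.3.3, with Benjamini-Hochberg adjustment over all probes kept and a threshold of 0.05. The main fit had no block, and the SEs in the text are from it unless stated otherwise. The slide, which carried the same replicate number in both groups, was fitted as a block beside it, since each slide held both groups. Same-numbered arrays deviated from their group means together (correlation 0.713). With 2 arrays against 2 the smallest exact permutation p is 0.333. The labels speak of independent experiments, and whether they cover separate litters is not given there. The p-values therefore measure the spread between these arrays only. With the block that spread came mostly from the intensity trend over all probes, to which limma gave 14.8 prior degrees of freedom (3.35 without the block). The own spread of a probe between the slides counted for little in that fit.

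Genes were named from the files, all 9 with every probe. From each list the genes called with the block were named, up to 4 by p, or the 2 with the smallest p where fewer than 2 were called. Bcl2l1, Mcl1, Trib3, Chac1, Ddit3, Tubb3, Cdk1, Ccnb1, Sox2 and Hes5 fall outside this rule and were chosen after their values were seen. The members and lists were chosen with earlier results of these data known, and a few genes stand in more than 1 list. RefSeq start-site windows (GRCr8) were matched by symbol. Alternatives were quantile and cyclic loess normalization, normexp (offset 50) on the raw intensity, the authors' table, other filters, no intensity trend, 1 probe per gene, and leaving out each array. The steps were checked on simulated data. Some items of the lists are not reported here.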

Additional observations from a re-analysis of the deposited data

How the results depend on the processing

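The 4 arrays allow no more than 2 values per group, and the calls rest on the intensity-trended variance and on the slide as a block. Without the replicate block limma called 0 probes of the whole array and of the 9 genes under each of the 5 scalings, with 1 probe per gene name and with each array left out (lowest and highest 0), and 0 genes of any list at the 75th percentile. The other filters on dim probes were run only with the block. Without the intensity trend it called 0 with or without the block. With the replicate block it called 2161 probes over the whole array, 2135 when probes had to be well above background on all 4 arrays, 2051 with 1 probe per gene name and 354 with no filter on dim probes. Quantile normalization gave 1352, cyclic loess 971, normexp 1421 and the authors' processed values gave 1103. Of the probes of the 9 genes the same fits called 5, 5, 5 (of 9 genes), 1, 4, 3, 4 and 3 in that order. The lists were counted with the block at the 75th percentile, then with quantile normalization, cyclic loess, normexp and the authors' processed values. The other p53 targets had 3, 2, 1, 2 and 1 called genes, and p53 with its regulators 1, 1, 0, 1 and 0. The BCL2 family had 0, 2, 1, 0 and 1. The caspase list had 3 throughout, the relatives 3, 2, 2, 3 and 2, and the ATF4 list 2, 2, 1, 2 and 2. The median difference of all probes was 0.08 at the 75th percentile, 0.01 with quantile normalization, cyclic loess or the authors' processed values, and 0.06 with normexp. The median of the 14 probes was 0.33, 0.21, 0.21, 0.21 and 0.23 in that order, and under all 5 scalings 10 of the 14 were higher within both slides. The split of higher and lower calls was 1175 and 986 at the 75th percentile, 545 and 807 with quantile normalization, 369 and 602 with cyclic loess, 635 and 786 with normexp, and 427 and 676 with the authors' values. Bax probe A_44_P489512 had -0.033 with normexp, with and without the block, and -0.15 to 0.18 with an array left out. With an array left out Bax probe A_43_P11800 had -0.056 to 0.19, Mdm2 probe A_44_P634946 -0.00045 to 0.18 and Ccng1 probe A_44_P367761 -0.99 to 1.57. The other 10 probes kept their direction. The causes were not tested. Leaving out an array could not be fitted together with the block, since no residual degree of freedom is left. Probes of the dimmest genes, such as both of Bcl2 (22.9 to 94.5 signal units), have the least signal over background. The called Cdkn1a probe A_44_P515275 was dim too, at 56.4 to 142 signal units.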

Other observations

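The 2 slides gave different sizes for different genes. Both Cdkn1a probes (0.65 and 0.50 on slide 1, 1.05 and 0.67 on slide 2), Btg2 (0.75 and 1.05) and Gadd45g (0.50 and 1.19) had the larger difference on slide 2. Bbc3 (0.79 and 0.07), Sesn2 (0.75 and 0.29) and Atf3 (2.13 and 0.45) had it on slide 1. The ATF4 targets Trib3 (1.76 and -0.95), Chac1 (0.71 and -0.22) and Ddit3 (0.65 and 0.14), none of which passed with the block, also had it on slide 1. Genes of 1 list did not all go the same way. The p53 target Gdf15 had 0.62 on slide 1 and 0.31 on slide 2, and Ddit4 of the ATF4 list differed little between the slides. These slide patterns were noticed in the values and the difference between the slides was not tested, since each slide holds 1 array per group.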
